A study of Mus musculus with 14 samples.

Results

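The matrix metalloproteinases (Mmp genes), the ADAMTS proteases (Adamts), the ADAMTS-like proteins (Adamtsl) and the tissue inhibitors of metalloproteinases (Timp) were followed in mouse livers during pancreatic cancer growth and in cultured mouse pancreatic stellate cells (PSCs). Members were all protein-coding genes whose symbol is one of these names followed by a number, which gave 50 of the 22046 protein-coding genes listed for the livers. There were 22 Mmp, 19 Adamts, 5 Adamtsl and 4 Timp genes, and 43 of the 50 were also listed for the PSCs. Mmp1a has a matching symbol but is not annotated as protein-coding and was left out.

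The livers came from mice of both sexes, 8 to 12 weeks old, 20 days after 100000 KPCY cells, a mouse pancreatic ductal adenocarcinoma line, had been injected into the tail of the pancreas. WT livers (n = 2) were from Piezo1 fl/fl mice, the line named WT, and TRPV4-KO livers (n = 3) were from a separate line with global loss of the ion channel TRPV4, in which the injected tumor cells still had the gene. GSK219 livers (n = 3) were from WT mice given the TRPV4 antagonist GSK2193874 at 10 mg/kg by daily gavage in the carrier cavitron, and whether the WT mice received the carrier was not stated. The PSCs came from 3 preparations grown on Matrigel-coated plates in DMEM/F12 with serum, and each preparation was given Yoda1, an agonist of the mechanically gated channel PIEZO1, at 25 μM or its solvent DMSO. The treatment time was given as 24 hours in the Methods and as 72 hours in a legend. The labels call the livers biological replicates, and p-values of the main fits measure the spread between libraries of the same group. In PSCs the main fit does not use the pairing of both treatments within a preparation. A fit with the preparation as a replicate block uses it and is given as an alternative.

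MMPs, ADAMTS proteases and TIMPs together set how fast extracellular matrix is broken down. MMPs are zinc proteases that are mostly secreted as inactive proenzymes: collagenases cleave fibrillar collagen, gelatinases cleave denatured and basement membrane collagen, stromelysins cleave a wide range of matrix proteins and activate other proenzymes, and membrane-type MMPs act at the cell surface. ADAMTS proteases carry thrombospondin repeats and include the proteoglycanases, which cut aggrecan and versican, and the procollagen N-proteinases, which trim new collagen. ADAMTS-like proteins share the repeats but lack the protease domain, and TIMPs bind and block the active sites. Neutrophils store Mmp8 and Mmp9 protein in granules, macrophages make Mmp12, and stellate cells of liver and pancreas make Mmp2, Mmp14 and TIMPs.

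Liver libraries held between 15567031 and 17395299 counted reads, and PSC libraries held between 27312894 and 39070539. Trpv4 itself had 43 and 53 reads in WT livers, 15, 5 and 23 in TRPV4-KO livers, and 20, 30 and 36 in GSK219 livers, so reads remained on the gene in the knockout. In each group 1 liver (WT replicate 1, replicate 3 of TRPV4-KO, replicate 3 of GSK219) had between 13681 and 15754 Xist reads while the other 5 had at most 7, and deviations from the group means ran together in these 3 livers (correlations between 0.58 and 0.63 across genes, which are not independent replicates). Hepatocyte markers summed to between 74673 and 117092 CPM (counts scaled to the library total) per liver. PSC libraries carried the fibroblast genes Col1a1, Vim, Des and Pdgfrb in each library, with Col1a1 between 6828 and 13215 RPM (reads scaled to the library total), and also Krt8, an epithelial keratin, between 695 and 1523. The stellate cell markers Lrat, Gfap and Colec11 were not listed for the PSCs, so they had no value there.

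Of the 50 members, 9 lie side by side on chromosome 9, between 7272514 and 7699585 (mouse genome GRCm38), with no other protein-coding gene in these 427.1 kb. Their order from Mmp13 is Mmp12, Mmp1b, Mmp3, Mmp10, Mmp8, Mmp27, Mmp20 and Mmp7, and of these Mmp1b alone is on the minus strand. This cluster held each of the 3 members that passed the threshold upward with Yoda1. Promoter sequences are therefore shown for the 3 called genes and for Mmp12, the other cluster member that was higher in all 3 preparations, as the 120 bases before the start site in RefSeq (GRCm38.p6, plus strand, 5′ to 3′). Capitals mark TGANTCA, the letters bound by AP-1 factors such as Fos and Jun, and TATAAA, the TATA box letters. For Mmp12 the start site used is one that lies inside the gene model of the files.
Mmp13, chr9:7272394-7272513: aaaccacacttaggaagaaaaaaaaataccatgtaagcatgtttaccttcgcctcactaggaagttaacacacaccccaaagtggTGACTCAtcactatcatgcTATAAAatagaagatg
Mmp10, chr9:7502222-7502341: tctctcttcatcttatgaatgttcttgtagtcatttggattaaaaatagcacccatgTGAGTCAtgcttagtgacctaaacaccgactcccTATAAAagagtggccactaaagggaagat
Mmp3, chr9:7445702-7445821: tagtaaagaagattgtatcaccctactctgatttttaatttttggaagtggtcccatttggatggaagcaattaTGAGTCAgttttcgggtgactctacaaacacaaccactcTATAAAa
Mmp12, chr9:7347254-7347373: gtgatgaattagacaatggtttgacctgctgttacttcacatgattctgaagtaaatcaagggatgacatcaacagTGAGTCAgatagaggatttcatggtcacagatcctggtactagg

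The AP-1 letters begin 35 bases before the start site in Mmp13, 63 before it in Mmp10, 46 before it in Mmp3 and 44 before it in Mmp12. Windows of 300 bases, from 250 before to 50 after the start, were searched on both strands for all genes with an entry, and 35 of the 50 members had one. TGANTCA was found in 7 of the 35 members (20%) and in 2425 of 27025 genes (8.97%). All 7 lie in the chromosome 9 cluster, where Mmp8 and Mmp27 were the members without it, and the 7 include Mmp12 and Mmp1b, which limma did not call, and Mmp20 and Mmp7, which were not tested. Both TGANTCA and TATAAA were found in the same 7 members (20%) and in 496 of all genes (1.84%). TATAAA begins 16 bases before the start site in Mmp13, 29 before it in Mmp10 and 7 before it in Mmp3, and in Mmp12 it lies after the start site and outside the stretch printed. ACCACA, the letters bound by RUNX factors, was found in 6 members (17.1%) and in 5113 genes (18.9%). These are matches of letters, and no match in a window says only that the letters are not in it.

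**Figure D1:**
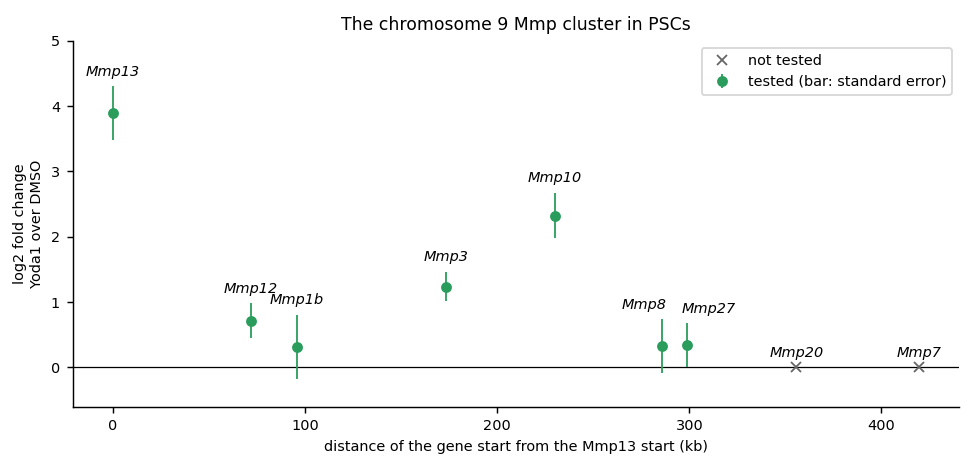
The 9 Mmp genes of the chromosome 9 cluster by distance of the gene start from the Mmp13 start in kb, with the log2 fold change of Yoda1 over DMSO in PSCs and its standard error (n = 3 preparations). Mmp13, Mmp10 and Mmp3 sit at 3.89, 2.32 and 1.24, and Mmp20 and Mmp7 were not tested.

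Levels were first compared between genes, as CPM per kb of gene model for livers and RPM per kb for PSCs, since longer genes collect more reads. In WT livers the highest members were Mmp19 at 16.9 ± 0.113 (SD, n = 2) CPM per kb, Mmp14 at 11.6 ± 2.03, Mmp15 at 8.55 ± 2.31, Timp2 at 7.99 ± 1.52 and Adamts10 at 4.38 ± 0.146. The ranges of the 2 livers overlapped for Mmp14 and Mmp15 and for Mmp15 and Timp2, which are neighbours in this order. Mmp19 belongs to none of the classic MMP groups, and Mmp14 and Mmp15 encode membrane-type enzymes. In DMSO-treated PSCs the order was another one. Timp1 led at 1195 ± 118 (SD, n = 3) RPM per kb, followed by Timp3 at 340.1 ± 27.4, Mmp14 at 167.1 ± 5.31, Mmp2 at 102.3 ± 17.3 and Timp2 at 72.8 ± 19.4, of which the last pair do not differ beyond their spread. Of the family's summed level per kb, Timp genes made up between 78.6% and 81.1% in the 6 PSC libraries and between 9.53% and 14.6% in the 8 livers, where Mmp genes made up between 59.6% and 73.6%.

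In livers 31 members passed the filter on low counts, 12 had counts but were not tested, and 7 had no count in any liver: Adamts18, Adamts19, Adamts20, Mmp10, Mmp1b, Mmp20 and Timp4. The markers Mmp13 and Timp1 were among the 12. Mmp8 reached the minimum count of 10 in WT livers alone, the group where it was highest, so its place among the tested members rests on that group. It is included in the counts of members below that were higher in WT at an unadjusted p under 0.05 or without overlap, and these counts are a description. Mmp28 reached it in GSK219 livers alone, where it was highest, and the counts of members lower in TRPV4-KO than in GSK219 livers that include it are likewise a description. With 0 counts in a liver, a level of up to 3 counts is allowed, for counting error only.

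The first comparison asked how the livers of mice with TRPV4 differed from those without it. Several matrix-degrading enzymes had higher values in WT than in TRPV4-KO livers, with Mmp2, Mmp9, Mmp12 and Adamts4 between 3.65-fold and 5.58-fold higher, yet 0 of the 31 members passed the threshold in edgeR, which asks for more than 1 on the log2 scale in either direction and an adjusted p below 0.05. Of all 15118 genes tested, 0.152% passed it upward and 0.112% downward. At an unadjusted p under 0.05, 13 members were higher in WT (41.9%, against 9.5% of all genes) and 2 were lower (6.45%, against 7.61%). DESeq2 called 6 of its 30 tested members higher, Adamts2, Adamts4, Adamtsl2, Mmp12, Mmp2 and Mmp9 (20%, against 2.43% of all genes), and 1 lower, Adamts7 (all genes 0.797%). The median log2 fold change was 0.68 over the 31 members, with 25 above 0, and -0.01 over all genes. In bulk tissue, fewer cells of a type and less RNA per cell cannot be told apart.

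Mmp2 had the smallest p of the members in this comparison. Mmp2 (ENSMUSG00000031740, chromosome 8, 92827291 to 92853420), which cleaves denatured and type IV collagen, had 196 and 136 reads in WT livers, 54, 34 and 45 in TRPV4-KO livers, and 84, 98 and 67 in GSK219 livers. The groups did not overlap, and GSK219 livers lay between the others. Its means were 10.0 ± 2.97 CPM in WT (SD, n = 2), 2.74 ± 0.617 in TRPV4-KO and 5.07 ± 0.976 in GSK219 (n = 3 each), and WT over TRPV4-KO gave a log2 fold change of 1.87 (SE 0.29, adjusted p = 0.0529 in edgeR and 1.516e-05 in DESeq2). Mmp9 (ENSMUSG00000017737, chromosome 2, 164940780 to 164955850), the gelatinase of granulocytes and macrophages, had 91 and 109 reads in WT livers, 8, 19 and 36 in TRPV4-KO livers, and 19, 15 and 40 in GSK219 livers. Both WT livers were above the other 6, with a log2 fold change over TRPV4-KO of 2.22 (SE 0.55, adjusted p = 0.131 in edgeR and 0.00634 in DESeq2).

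**Figure D2:**
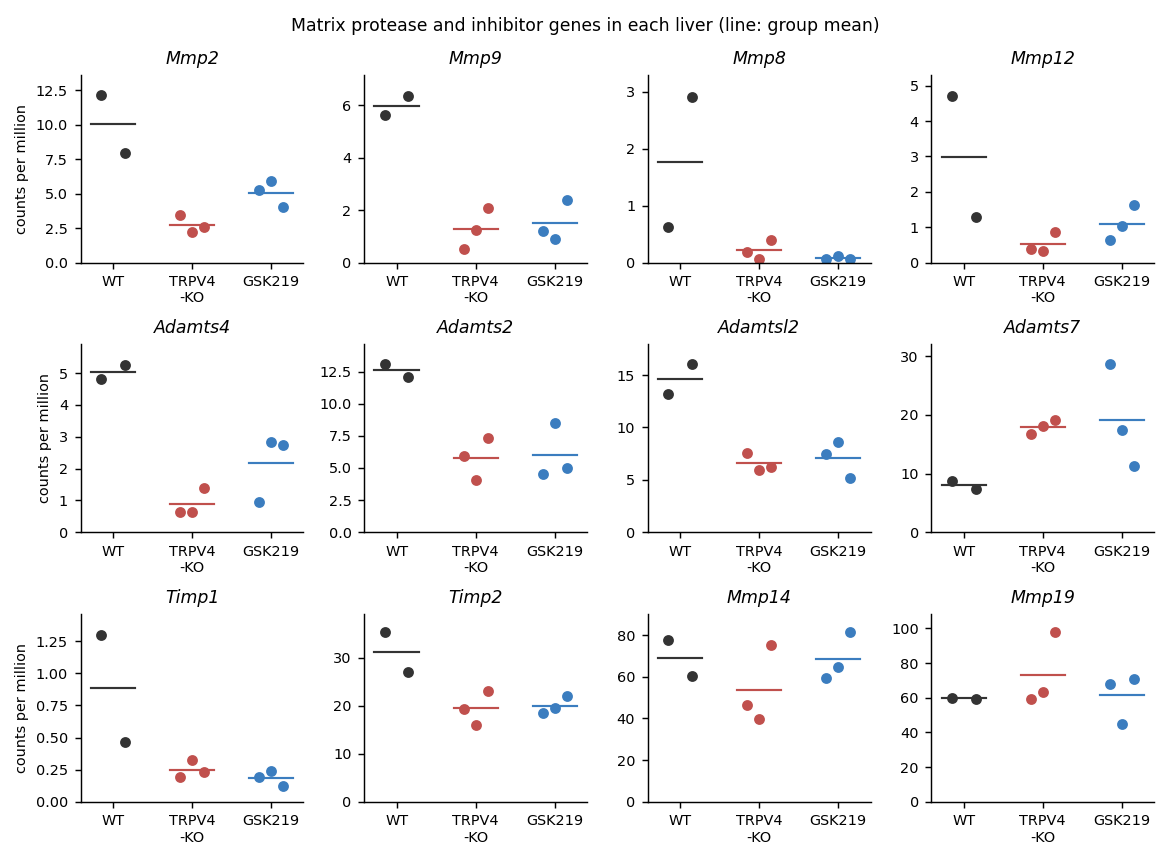
CPM of selected members in each of the 8 livers (points) by group, with group means (lines) and each axis from 0. Mmp2, Mmp9 and Adamts4 separate both WT livers from the 3 TRPV4-KO livers, while Mmp12 and Mmp8 differ several-fold between the 2 WT livers.

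Mmp8 and Mmp12, which are known from myeloid cells, varied several-fold between the WT livers. Mmp8 (ENSMUSG00000005800, chromosome 9, 7558456 to 7568485), the neutrophil collagenase, had 10 and 50 reads in WT livers, 3, 1 and 7 in TRPV4-KO livers, and 1, 2 and 1 in GSK219 livers. Both WT livers lay above every other liver, but they differed 5-fold in reads from each other. Over summed counts WT was 8.42 times TRPV4-KO (95% Clopper-Pearson interval 4.39 to 17.8, counting error only), and the fit, which Mmp8 entered through the WT livers alone, gave a log2 fold change of 2.94 (SE 0.79, adjusted p = 0.15 in edgeR and 0.0579 in DESeq2), which was 3.67 without WT replicate 1 and 1.45 without WT replicate 2. Mmp12, the macrophage metalloelastase, which degrades elastin, had 76 and 22 reads in WT livers, 6, 5 and 15 in TRPV4-KO livers, and 10, 17 and 27 in GSK219 livers. WT and TRPV4-KO did not overlap, and WT replicate 2 lay within the range of GSK219. The log2 fold change of Mmp12 over TRPV4-KO was 2.48 (SE 0.67, adjusted p = 0.151 in edgeR and 0.0217 in DESeq2), and it was 1.28 without WT replicate 1 and 3.15 without WT replicate 2.

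Among the ADAMTS proteoglycanases all 5 tested members had a positive log2 fold change in WT over TRPV4-KO, with a median of 1.46. Adamts4 (ENSMUSG00000006403, chromosome 1, 171250421 to 171260637), an aggrecanase, had 78 and 90 reads in WT livers, 10, 10 and 24 in TRPV4-KO livers, and 15, 47 and 46 in GSK219 livers. WT and TRPV4-KO lay far apart, with a log2 fold change of 2.48 (SE 0.51, adjusted p = 0.0995 in edgeR and 0.000825 in DESeq2). Whether the counting used strand was not stated, so where a member overlaps a gene on the opposite strand their reads cannot be told apart. Adamts2, a procollagen N-proteinase, had 212 and 208 reads in WT livers, 94, 63 and 127 in TRPV4-KO livers, and 72, 141 and 84 in GSK219 livers, with both WT livers above all others. Its log2 fold change over TRPV4-KO was 1.12 (SE 0.32, adjusted p = 0.160 in edgeR and 0.0342 in DESeq2).

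Adamtsl2 (ENSMUSG00000036040, chromosome 2, 27079379 to 27108981), encodes an ADAMTS-like protein of the fibrillin network. It had 214 and 276 reads in WT livers, 120, 92 and 107 in TRPV4-KO livers, and 119, 142 and 86 in GSK219 livers, and both WT livers lay above the rest. The log2 fold change over TRPV4-KO was 1.16 (SE 0.24, adjusted p = 0.101 in edgeR and 0.00373 in DESeq2). Adamts7 (ENSMUSG00000032363, chromosome 9, 90163069 to 90208071), known for cleaving cartilage oligomeric matrix protein, went the other way. It had 142 and 125 reads in WT livers, 265, 279 and 331 in TRPV4-KO livers, and 455, 289 and 189 in GSK219 livers, all 6 above both WT livers, with a log2 fold change of -1.16 over TRPV4-KO (SE 0.35, adjusted p = 0.169 in edgeR and 0.0307 in DESeq2). Adamts7 overlaps Tbc1d2b on the opposite strand.

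Of the inhibitors, Timp1 and Timp2 had higher values in WT than in TRPV4-KO livers and Timp3 lower ones. Timp2 and Timp3 did not pass the threshold, and Timp1 was not tested. Timp1 (ENSMUSG00000001131, X chromosome, 20870166 to 20874735) had 21 and 8 reads in WT livers, 3, 5 and 4 in TRPV4-KO livers, and 3, 4 and 2 in GSK219 livers, too few for the filter. The summed counts, 29 against 12, gave a ratio of WT to TRPV4-KO of 3.73 (95% interval 1.85 to 8.03), which was 1.98 (0.701 to 5.26) without WT replicate 1 and 5.64 (2.65 to 12.6) without WT replicate 2, and without the filter edgeR gave a log2 fold change of 1.76 (SE 0.71, adjusted p = 0.323). Timp1 lies within Syn1, which is on the opposite strand. Timp2, which also helps Mmp14 to activate Mmp2, had 571 and 462 reads in WT livers, 304, 246 and 399 in TRPV4-KO livers, and 295, 322 and 368 in GSK219 livers. Both WT livers were above the other 6, by a log2 fold change over TRPV4-KO of 0.68 (SE 0.18, adjusted p = 0.151 in edgeR and 0.0456 in DESeq2), which is under the fold limit. Timp3, which is held in the matrix, had 139 and 191 reads in WT livers and 251, 230 and 215 in TRPV4-KO livers, a log2 fold change of -0.55 (SE 0.21, adjusted p = 0.237), and Timp4 had no count.

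None of the members with the highest level per kb passed the threshold. Mmp14 had 1252 and 1036 reads in WT livers, 732, 610 and 1303 in TRPV4-KO livers, and 941, 1070 and 1364 in GSK219 livers, and all groups overlapped. Mmp19 had 972 and 1022 reads in WT livers and 934, 976 and 1691 in TRPV4-KO livers, with a log2 fold change of -0.29 (SE 0.26). Mmp15 had 603 and 943 reads in WT livers, 1289, 1596 and 693 in TRPV4-KO livers, and 1297, 1037 and 595 in GSK219 livers, with a log2 fold change over TRPV4-KO of -0.70 (SE 0.46, adjusted p = 0.485) and the lowest value of every group in the liver with Xist reads. Over all groups, the 3 livers with Xist reads and the other 5 did not overlap in CPM for 3 members, of which Mmp14 and Adamtsl4 were higher in livers with Xist reads (6.45%, against 7.38% of all genes) and Mmp15 was lower (3.23%, against 4.47%). Adamts10, a binding partner of fibrillin, had 395 and 400 reads in WT livers and 238, 154 and 333 in TRPV4-KO livers, with a log2 fold change of 0.69 (SE 0.28, adjusted p = 0.261). The collagenase Mmp13 had 12 and 0 reads in WT livers, 5, 5 and 6 in TRPV4-KO livers, and 1, 10 and 5 in GSK219 livers, so no difference was detectable at this depth.

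Groups that did not overlap in CPM were also counted. WT livers were both above all TRPV4-KO livers for 15 of the 31 members (48.4%, against 17.7% of all genes) and both below for 2 (6.45%, against 15.5%). TRPV4-KO replicate 3 was nearer to WT than the other 2 knockout livers for Adamts15, Adamts6 and Adamts9. It is the only knockout liver with Xist reads, so without it WT kept a liver with such reads while TRPV4-KO had no such liver. In that unbalanced fit 9 members passed the threshold upward (29.0%, against 3.83% of all genes in the same fit): Adamts15, Adamts2, Adamts4, Adamts9, Adamtsl2, Mmp12, Mmp2, Mmp8 (by the filter noted above) and Mmp9. With a term for livers with Xist reads, 5 members passed it, Adamts4, Adamtsl2, Mmp12, Mmp2 and Mmp9 (all genes 1.67%), and with no filter on low counts 3 did, Adamts4, Adamtsl2 and Mmp2 (all genes 0.37%).

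The second comparison asked whether the antagonist gave the same difference as the knockout. It shares the 2 WT livers with the first, so its values are given side by side and not as a separate count of evidence. In edgeR 0 members and 0 genes passed the threshold in either direction (0.0% of all genes). At an unadjusted p under 0.05, 9 members were higher in WT (29.0%, against 5.87% of all genes) and 1, Adamts7, was lower (3.23%, against 2.34%). DESeq2 called 2 of its 33 tested members higher in WT, Adamtsl2 and Mmp8 (all genes 0.408%). Both WT livers were above all GSK219 livers for 12 members (38.7%, against 15.6%) and below for 1 (3.23%, against 11.7%), and the median log2 fold change was 0.50 over the members and 0.00 over all genes.

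Mmp8, which passed the filter through the WT livers alone, had a log2 fold change against GSK219 of 4.32 (SE 0.90, adjusted p = 0.391 in edgeR and 0.0277 in DESeq2), beside 2.94 against TRPV4-KO. It rests on 60 summed reads against 4, a ratio of 22.4 with a 95% interval of 8.31 to 84.9, and without WT replicate 2, which had 50 of the 60 reads, the log2 fold change was 2.81. Timp1, with 29 summed reads against 9, gave a ratio of 4.82 (2.22 to 11.6), which was 2.55 (0.857 to 7.45) without WT replicate 1. Adamtsl2 gave 1.05 (SE 0.24, adjusted p = 0.409 in edgeR and 0.0403 in DESeq2), Mmp9 1.99 (SE 0.54, adjusted p = 0.465), and Timp2 0.64 (SE 0.18, adjusted p = 0.527) as log2 fold changes. Adamts7 gave -1.25 (SE 0.35, adjusted p = 0.478). Mmp2 was nearer to WT with the antagonist than with the knockout, at a log2 fold change of 0.98 (SE 0.29, adjusted p = 0.527).

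**Figure D3:**
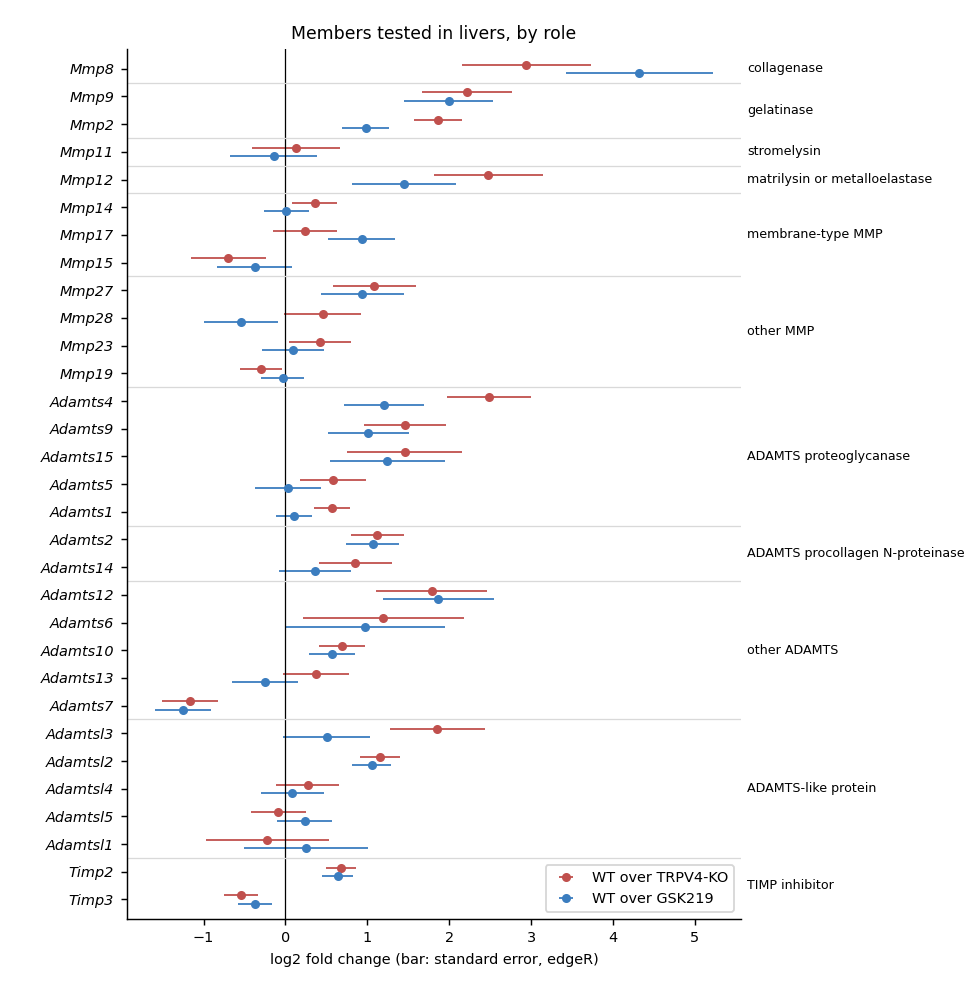
Log2 fold changes of WT over TRPV4-KO and of WT over GSK219 for the 31 members tested, with standard errors. Most points lie above 0, Adamts7 lies at -1.16 and -1.25, and both comparisons share the 2 WT livers.

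The knockout and the antagonist were also compared directly. No member passed the threshold between TRPV4-KO and GSK219 livers in edgeR or in DESeq2 (0.0529% of all genes higher and 0.0463% lower in edgeR). At an unadjusted p under 0.05, 0 members were higher in TRPV4-KO (all genes 3.48%) and 5 were lower, Adamts1, Adamts4, Adamtsl3, Mmp2 and Mmp28 (16.1%, against 2.64%). Groups did not overlap for 1 member that was higher, Mmp17 (3.23%, against 5.85%), and for 3 that were lower, Adamtsl3, Mmp2 and Mmp28 (9.68%, against 4.35%). Mmp2 had a log2 fold change of -0.89 for TRPV4-KO over GSK219 (SE 0.27, adjusted p = 0.594), and Adamts4 one of -1.28 (SE 0.48, adjusted p = 0.749). Adamtsl3 had 3 reads in each TRPV4-KO liver and 4, 12 and 8 in GSK219 livers, so its log2 fold change of -1.35 (SE 0.56) rests on few reads. Mmp28, which passed the filter through the GSK219 livers alone, had 7, 6 and 6 reads against 13, 9 and 17, Mmp17 had 9, 14 and 14 against 8, 7 and 8, and Adamts1 had 154, 148 and 188 against 160, 267 and 261. These misses do not show that the knockout and the antagonist acted alike.

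Markers of several other cell types had higher values in WT than in TRPV4-KO livers. All 18 tested neutrophil markers of 20 had a positive log2 fold change in WT over TRPV4-KO, with a median of 3.49, and 3 passed the threshold (S100a8, Cxcr2 and Cd177). Their summed level was 1321 CPM in WT replicate 1 and 497.7 in WT replicate 2, livers in which Mmp8 had 10 and 50 reads. The sum ran from 48.3 to 308.7 in TRPV4-KO livers and from 76.7 to 228.2 in GSK219 livers. It is weighted to the highest markers: Lcn2, also counted among the regulators below, led in livers, and S100a8 reached at most 15.97 CPM. Whether the order of the sum in the WT livers holds for the other neutrophil markers was not tested. All 15 macrophage and Kupffer cell markers were positive with a median of 1.32, and they summed to between 2249 and 2614 CPM in WT, 645.4 and 1380 in TRPV4-KO, and 682.6 and 1610 in GSK219 livers. All 18 stellate cell and fibroblast markers were positive with a median of 0.90, and they summed to between 600.2 and 828.2, 226.4 and 490.5, and 315.5 and 503.7 CPM. None of these markers was at 0 in all livers. The medians were 0.25 for 14 endothelial markers, 0.36 for 10 ductal and epithelial markers, 0.25 for 12 lymphocyte markers, -0.13 for 3 tested acinar markers (Amy2a5 and Ptf1a were at 0 in all livers), and -0.20 for 11 hepatocyte markers, which summed to less in both WT livers than in the others. The part of these cell types in the values of Mmp8, Mmp9, Mmp12, Mmp2 and the other members was not tested.

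Other genes of matrix turnover were counted from lists. The 21 tested matrix substrates, collagens and proteoglycans among them, were all higher in value in WT than in TRPV4-KO livers, with a median log2 fold change of 0.90 and 0 past the threshold. Versican (Vcan), which ADAMTS proteoglycanases cut, had one of 2.11 (SE 0.44, adjusted p = 0.102), and Col3a1 one of 1.85 (SE 0.45, adjusted p = 0.136). Of 19 cathepsins and serine matrix proteases 16 were positive with a median of 0.59, of 15 ADAM and astacin proteases 9 with a median of 0.40, and of 20 regulators and activators 13 with a median of 0.16, and 0 passed the threshold in these lists. Among the regulators, Plau, the urokinase that activates plasminogen, had a log2 fold change of 1.21 (SE 0.31, adjusted p = 0.141). Against GSK219 the medians were 0.74 for the substrates, 0.78 for the cathepsins and serine proteases, 0.29 for the ADAM and astacin proteases and 0.13 for the regulators.

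In PSCs the question was what activation of PIEZO1 by Yoda1 does. Mmp13, Mmp10 and Mmp3, which are secreted proteases of the chromosome 9 cluster, rose with Yoda1, while Adamts12 and Adamts20 fell. Of the 40 members tested, 3 passed the threshold upward (7.5%, against 0.733% of all genes) and 2 downward (5.0%, against 0.786%) in limma on log2 values with a pseudocount of 1. Adamts20 met the filter on low values through the DMSO libraries, where it was highest. The counts of members lower with Yoda1 that include it, here and below, are therefore a description. Without the fold limit, 5 were higher (12.5%, against 2.19%, with Adamts14 and Adamtsl5) and 4 were lower (10.0%, against 2.47%, with Mmp14 and Timp3), and with the preparation as a replicate block these counts were 6 higher (15%, against 8.68%, with Mmp12 in addition) and 14 lower (35%, against 9.55%). With both limits and the replicate block, the same 3 passed upward (all genes 1.66%) and 5 passed downward (12.5%, against 1.32%), with Adamts16, Adamts8 and Mmp9 in addition. On the reads recovered from these values, edgeR called the same 3 and 2 members (all genes 0.723% and 0.749%), and DESeq2 called the same 3 upward (all genes 1.35%) and 4 downward (all genes 1.15%), with Adamts16 and Adamts8. The median log2 fold change was -0.22 over the members, with 28 of 40 below 0, and -0.01 over all genes. Deposited values below are read counts divided by a size factor for each library, and replicates with the same number are one preparation.

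Mmp13 (ENSMUSG00000050578, chromosome 9, 7272514 to 7283331), the main fibrillar collagenase of mice, had values of 64.8, 75.2 and 42.4 with DMSO and 550.3, 807.3 and 1597 with Yoda1. Every Yoda1 library lay far above every DMSO library, and the 3 preparations gave 8.37-fold, 10.6-fold and 36.8-fold. The means were 60.8 ± 16.8 and 984.9 ± 545.6 (SD, n = 3), and the log2 fold change was 3.89 (SE 0.41, adjusted p = 0.0104). The other collagenases stayed low and were not called. Mmp8 had 49.9, 24.7 and 15.1 with DMSO and 33.9, 33.7 and 32.9 with Yoda1, with a log2 fold change of 0.32 (SE 0.41, adjusted p = 0.686), and Mmp1b had one of 0.31 (SE 0.49, adjusted p = 0.744).

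**Figure D4:**
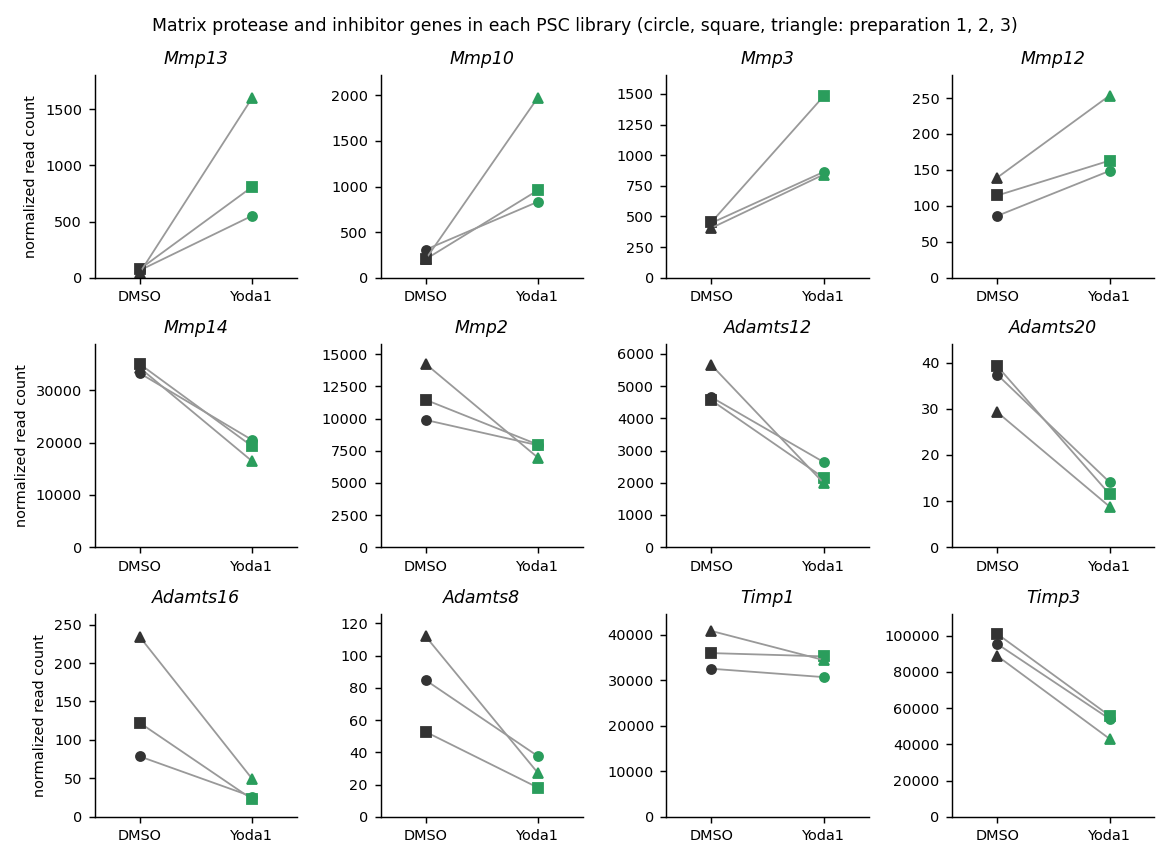
Deposited values (reads divided by a size factor, axes from 0) of selected members in the 3 DMSO and 3 Yoda1 libraries, with lines joining the libraries of one preparation. Yoda1 lies above DMSO in each preparation for Mmp13, Mmp10, Mmp3 and Mmp12, and below it for Mmp14, Timp3, Adamts12, Adamts20 and Timp1. For Timp1 the ranges of the treatments overlap.

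Stromelysins came next. Mmp10 (ENSMUSG00000047562, chromosome 9, 7502352 to 7510240), stromelysin-2, which activates other proenzymes, had 306.7, 201.9 and 200.9 with DMSO and 832.5, 958.7 and 1975 with Yoda1. The treatments did not overlap, and the log2 fold change was 2.32 (SE 0.35, adjusted p = 0.0204). Mmp3 (ENSMUSG00000043613, chromosome 9, 7445822 to 7455975), stromelysin-1, had 446.4, 453.2 and 405.8 with DMSO and 863.5, 1482 and 841.9 with Yoda1. It was higher in 3 of 3 preparations by a log2 fold change of 1.24 (SE 0.22, adjusted p = 0.0325). The adjusted p of Mmp3 was 0.0644 in limma without a trend, and without Yoda1 replicate 2 its log2 fold change was 0.97. The third tested stromelysin, Mmp11, had 667.1, 731.4 and 918.5 with DMSO and 1217, 1236 and 696.8 with Yoda1, which overlapped, with a log2 fold change of 0.41 (SE 0.24, adjusted p = 0.368). Mmp12 had 86.0, 114.4 and 139.3 with DMSO and 148.6, 162.9 and 253.4 with Yoda1, which did not overlap, with a log2 fold change of 0.72 (SE 0.26, adjusted p = 0.175, and 0.0156 with the replicate block). Mmp27, of the same cluster, had at most 28 reads and a log2 fold change of 0.34 (SE 0.33), and Mmp7 had values of at most 11.1 and was not tested.

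All 5 tested membrane-type members and both gelatinases had a log2 fold change below 0. Of these, Mmp14 and Mmp2 had higher levels per kb in DMSO libraries than Mmp13, Mmp10 and Mmp3. Mmp14, which activates pro-Mmp2 at the cell surface, had 33277, 35035 and 34310 with DMSO and 20521, 19319 and 16479 with Yoda1. The treatments lay far apart with little spread, and the log2 fold change of -0.87 (SE 0.09, adjusted p = 0.0100) passed the adjusted p but not the fold limit. Mmp2 had 9896, 11463 and 14258 with DMSO and 7930, 7981 and 6969 with Yoda1, with no overlap and a log2 fold change of -0.62 (SE 0.14, adjusted p = 0.0565, and 0.0407 with the replicate block). Mmp9 had 397.8, 569.8 and 1323 with DMSO and 232.3, 320.1 and 459.4 with Yoda1. Its treatments overlapped, with Yoda1 below DMSO in each preparation, and its log2 fold change of -1.04 had an adjusted p of 0.243 (SE 0.46) and one of 0.0137 with the replicate block.

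All 7 tested ADAMTS proteoglycanases had a log2 fold change below 0, with a median of -0.66. Adamts20, a versican-cleaving enzyme, had 37.4, 39.3 and 29.3 with DMSO and 14.1, 11.5 and 8.82 with Yoda1, with no overlap at low values. Its log2 fold change was -1.55 (SE 0.26, adjusted p = 0.0284), in a fit whose filter it met through the DMSO libraries, where it was highest. Adamts8 had 84.8, 52.7 and 112.0 with DMSO and 37.6, 18.1 and 27.3 with Yoda1, also without overlap, with a log2 fold change of -1.55 (SE 0.37, adjusted p = 0.0690, and 0.00846 with the replicate block). Adamts12, which binds and cleaves cartilage oligomeric matrix protein, is outside that group. It had 4652, 4556 and 5652 with DMSO and 2641, 2155 and 1990 with Yoda1, and it fell in each preparation, by 1.13 on the log2 scale (SE 0.13, adjusted p = 0.0123). Adamts16 had 78.6, 122.3 and 234.2 with DMSO and 26.3, 23.0 and 49.7 with Yoda1, with no overlap but a wide spread among preparations. Its log2 fold change of -2.04 (SE 0.46) had an adjusted p of 0.0612, and of 0.00361 with the replicate block.

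A pair of members passed the adjusted p upward but not the fold limit. Adamtsl5 had a log2 fold change of 0.46 (SE 0.07, adjusted p = 0.0235) and Adamts14, a procollagen N-proteinase, one of 0.62 (SE 0.12, adjusted p = 0.0403), with every Yoda1 library above every DMSO library. Of the members tested, 7 were higher in all 3 preparations (17.5%, against 27.2% of all genes) and 21 were lower in all 3 (52.5%, against 29.4%). Treatments did not overlap for 7 members that were higher (17.5%, against 14.9%) and 11 that were lower (27.5%, against 15.1%).

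**Figure D5:**
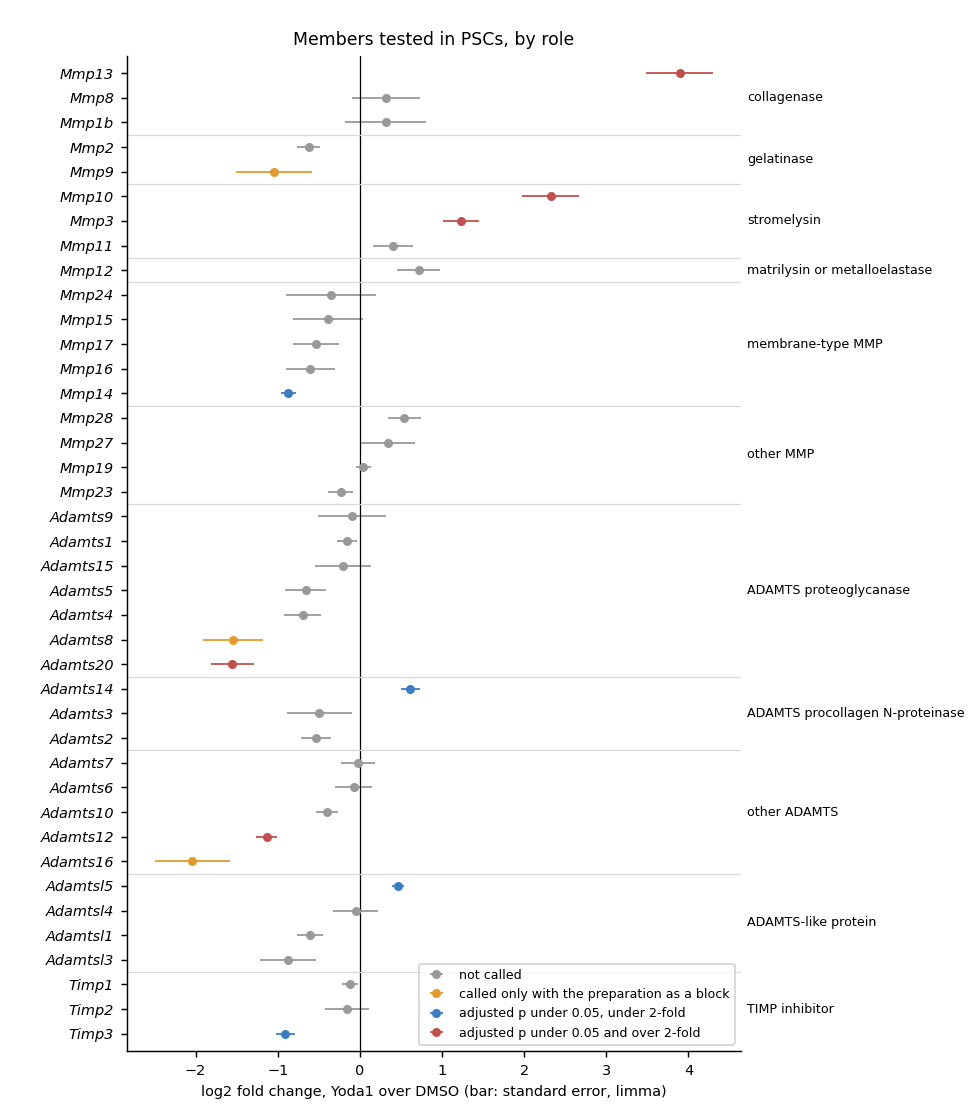
Log2 fold change of Yoda1 over DMSO for the 40 members tested in PSCs with standard errors (n = 3 preparations), grouped by role and colored by whether the threshold was passed. Stromelysins and collagenases are above 0, and membrane-type MMPs, gelatinases, proteoglycanases and TIMPs are below it.

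The inhibitors Timp1 and Timp3 had the highest levels per kb of all members. Timp3 had 95415, 100972 and 88812 with DMSO and 54031, 55793 and 43067 with Yoda1, far apart, with a log2 fold change of -0.91 (SE 0.11, adjusted p = 0.0140), which passed the adjusted p but not the fold limit. Timp1 had 32564, 36004 and 40874 with DMSO and 30720, 35283 and 34472 with Yoda1, which overlapped, and its log2 fold change was -0.12 (SE 0.10, adjusted p = 0.520). Timp2 had 12089, 9895 and 7181 with DMSO and 11282, 8961 and 6109 with Yoda1, so preparations differed more than treatments. Its log2 fold change was -0.16 (SE 0.27, adjusted p = 0.763, and 0.0748 with the replicate block). Timp4 was not listed for the PSCs.

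Adjusted p-values in PSCs crossed the threshold with single libraries left out, while the log2 fold changes ran from 1.94 to 2.57 for Mmp10, from 0.97 to 1.38 for Mmp3, from -1.70 to -1.39 for Adamts20 and from -1.25 to -1.04 for Adamts12. Without DMSO replicate 2 or without Yoda1 replicate 2 no member passed the threshold, and at most 0.113% of all genes did in either direction: the adjusted p of Mmp13 was then 0.0597 and 0.0687, with the log2 fold change of Mmp13 between 3.47 and 4.24 over all libraries left out. Mmp10 also missed it without DMSO replicate 1 (adjusted p = 0.0546) or 3 (0.0597), and Mmp3 without DMSO replicate 1 (0.107) or 3 (0.0797) or Yoda1 replicate 1 (0.0613). Adamts20 missed it without DMSO replicate 1 (0.105) or 3 (0.0549) or Yoda1 replicate 1 (0.0552), and Adamts12 without DMSO replicate 2 (0.0650) or Yoda1 replicate 2 (0.0758).

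Matrix substrates were counted from the same list as in livers. Of 24 tested substrates 22 had a log2 fold change below 0, with a median of -0.42, and 3 passed the threshold downward: Col3a1 at -1.19 (SE 0.07, adjusted p = 0.00369), Col5a1 at -1.04 (SE 0.15, adjusted p = 0.0194) and elastin (Eln) at -2.57 (SE 0.37, adjusted p = 0.0194). Of 15 tested stellate cell and fibroblast markers 9 were below 0 and 3 passed downward, Col3a1 again, Acta2 at -1.70 (SE 0.22) and Tagln at -1.22 (SE 0.10), and the list summed to between 29511 and 31458 RPM with DMSO and between 15486 and 18946 with Yoda1. None of the 14 cathepsins and serine proteases, 18 ADAM and astacin proteases and 19 regulators tested passed the threshold. By adjusted p alone, cathepsin B (Ctsb) was higher by 0.47 (adjusted p = 0.0104), and Prss23 (-0.80, adjusted p = 0.0360) and the procollagen C-proteinase Tll1 (-0.85, adjusted p = 0.0108) were lower.

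Markers of other cells in the PSC cultures were measured too. Ductal and epithelial markers, all 12 with a value, summed to 2701, 2725 and 3743 RPM with DMSO and 2812, 3401 and 5854 with Yoda1, higher in each preparation. Of the 12, 7 had a log2 fold change below 0, with a median of -0.02, and Spp1 passed the threshold upward (1.72, SE 0.19). Macrophage markers summed to between 95.96 and 103.1 with DMSO and between 84.1 and 131.8 with Yoda1. Of the 11 macrophage markers tested, 8 had a log2 fold change below 0, with a median of -0.39. Of 20 neutrophil markers 4 had a value, and S100a8, S100a9 and Cxcr2 were not listed for the PSCs. Endothelial markers summed to between 75.4 and 93.5 with DMSO and between 61.6 and 69.0 with Yoda1, with Lyve1 higher (1.82, SE 0.34) and Kdr lower (-1.07, SE 0.18). Kdr had the highest level of them, and 7 of the 11 tested had a log2 fold change above 0, with a median of 0.53. Acinar markers summed to 33.9, 115.4 and 190.5 with DMSO and 43.3, 151.2 and 417.6 with Yoda1, higher in each preparation. Hepatocyte markers summed to between 83.4 and 115.3 with DMSO and between 56.0 and 105.6 with Yoda1, though 3 of the 4 tested had a log2 fold change above 0. Lymphocyte markers summed to at most 1.18. The part of these cells in the values of Mmp13, Mmp10 and Mmp3 was not tested.

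The genes called in PSCs could be looked up in livers only in part. Mmp10 and Adamts20 had no count in any liver, Mmp13 and Mmp3 were below the filter, with 17 and 0 Mmp3 reads in WT livers and at most 2 in the others, and Adamts12 had 70 and 18 reads in WT livers, 11, 6 and 21 in TRPV4-KO livers, and 7, 18 and 11 in GSK219 livers. Adamts12 overlapped between WT and both other groups, with a log2 fold change over TRPV4-KO of 1.79 (SE 0.68, adjusted p = 0.235).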

How the data were processed

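RNA-Seq of 8 mouse livers and 6 mouse PSC libraries was used, grouped by the sample labels. The submitters' processing notes name HISAT2 2.0.5 and Trim Galore, and the counting tool and use of strand are not given in the sources used here. For livers the authors deposited raw counts per gene, with coordinates that equal GENCODE M21 (GRCm38) for 53462 of 54532 genes. The liver table has 7 more count columns that could be tied to none of the samples described, and they were left out. For PSCs the authors deposited a signal, gene counts divided by 1 size factor per library, of which 100% gave whole reads (tolerance 0.05). The deposited log2 fold changes and the deposited p-values are the authors' own comparison of Yoda1 with DMSO and were not used.

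Liver counts were tested in R 4.3.3 with edgeR 4.0.16: TMM, filtering at a minimum count of 10, 1 robust quasi-likelihood model over the 8 livers, and Benjamini-Hochberg adjustment over all 15118 genes. PSC values were tested with limma 3.58.1 on log2(value + 1), which understates changes of low genes, with a mean-variance trend and a robust fit, for 15145 genes with at least 10 in at least 3 libraries. A call needs more than 1 on the log2 scale in either direction and an adjusted p below 0.05. DESeq2 1.42.0 was an alternative, as were another normalization, no filter, the replicate block, fewer samples, a term for livers with Xist reads, other pseudocounts (0.1 and 10), edgeR and DESeq2 on the recovered PSC reads, and each library left out. Same-numbered PSC libraries are one preparation by their labels, and deviations from the treatment means correlated across genes by 0.431, 0.262 and 0.527. Replicates of a group differed beyond counting noise. The biological coefficient of variation was 28.34% in livers. Intervals are Clopper-Pearson and cover counting error only. Promoters are from RefSeq, and 15 members had no entry. Fits were tested on simulated data. Members and lists were chosen with earlier results of these data known. Named members are those called in a main test, DESeq2, the replicate block or edgeR on recovered reads, the 6 with the smallest p per comparison, Mmp13, Mmp8 and Timp1, the 5 highest per kb, and the cluster of chromosome 9. Mmp8 is among the genes that the study itself named from these livers. Adamts6, Adamts9, Adamts14, Adamts15, Adamtsl4, Timp3 in livers, Vcan, Plau and the other list genes were named after their values were seen.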

Additional observations from a re-analysis of the deposited data

How the results depend on the processing

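Compared with TRPV4-KO livers, the number of members called higher in WT was 0 in edgeR, 6 in DESeq2, 3 with no filter (Adamts4, Adamtsl2 and Mmp2), 5 with a term for livers with Xist reads, and between 0 and 9 with each liver left out (9 without TRPV4-KO replicate 3, with 3.83% of all genes, and 0 without each other liver, with at most 0.14% of all genes). The replicate block in livers, where numbers mark no shared origin and same-numbered livers correlated between -0.484 and 0.58, gave 3 (Adamts4, Mmp2 and Mmp9, with 2.32% of all genes). DESeq2 called 1 lower in WT than in TRPV4-KO and 2 higher in WT than in GSK219. In PSCs, members higher with Yoda1 numbered 3, or 5 by adjusted p only, and between 0 and 3 with a library left out (all genes between 0.0534% and 0.756%). Members lower with Yoda1 numbered 2, or 4 by adjusted p only (14 with the replicate block), 4 in DESeq2 on recovered reads, 5 with the replicate block, and between 0 and 3 with a library left out (all genes between 0.113% and 1.12%). The named members kept their sign in all 182 alternative values for WT over TRPV4-KO, all 84 for WT over GSK219, all 91 for TRPV4-KO over GSK219 and 245 of 249 for Yoda1. The 4 that reversed were Mmp1b at -0.13 and Timp2 at 0.01 without DMSO replicate 1, Mmp8 at -0.068 without DMSO replicate 3, and Timp2 at 0.081 without Yoda1 replicate 3. With a library left out, log2 fold changes ran from -0.13 to 0.49 for Mmp1b, from -0.068 to 0.76 for Mmp8 and from -0.36 to 0.081 for Timp2, and the cause was not tested. Limma without a trend was added after the data had been seen. Each WT comparison rests on 2 WT livers, and Mmp8 and Adamtsl3 on few reads, while Timp1 and Mmp13 had too few for the test in livers.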

Other observations

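Some members had too few reads in livers to be tested. Mmp25, a membrane-type enzyme of leukocytes, had 16 and 9 reads in WT livers, 3, 1 and 8 in TRPV4-KO livers, and 3, 3 and 5 in GSK219 livers. Mmp3 had all of its 17 WT reads in WT replicate 1. Mmp7 had 7 reads in that liver, 6 in TRPV4-KO replicate 3, 4 in GSK219 replicate 2 and at most 1 in the others.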
